A study of Canis lupus familiaris with 10 samples.

Results

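Contractile and mural cells surround the vessels of fat. MYH11 encodes the smooth muscle myosin heavy chain, and DES the muscle intermediate filament desmin. TTN encodes titin, the giant sarcomeric spring of striated muscle, and NOTCH3 the Notch receptor of mural cells. These 4 contractile and mural genes were followed in canine visceral adipose tissue (VAT). They are 4 of 19856 genes in the count tables, of which 13577 had at least 10 reads in at least 1 library and were tested, all 4 among them. The 4 genes were chosen from the study's own list of genes that differed between Post-ACTH and Pre-ACTH in these same libraries. Their difference between the groups was therefore used for the choice, and it is given below as a description without p-values. Where calls of the 4 genes in this contrast are counted, they repeat that choice and are no evidence.

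VAT was taken by laparotomy from 5 adult Beagle dogs (3 males and 2 females) before any treatment (Pre-ACTH) and again after 25 weeks of tetracosactide, a synthetic ACTH that makes the adrenal glands secrete cortisol (Post-ACTH). Pumps under the skin of the neck, changed at intervals of 4 weeks, delivered 1.3 to 1.95 μg/kg per day at first and 6 to 10 μg/kg per day at the end. Each dog thus gave 1 library to each group, 10 libraries in all, and the dogs are called 1 to 5 here by ascending animal ID (dogs 2 and 3 are the females). No untreated dog was sampled at both times, so the treatment cannot be told apart from 25 weeks of time or from a second operation. Pre-ACTH libraries held 8728330 to 14867529 counted reads and Post-ACTH libraries 12314258 to 14589329, and the smallest was the Pre-ACTH library of dog 3. Of 8 adipocyte markers only LIPE, the hormone-sensitive lipase, carries a symbol in the sources used here. It ranged from 1513 to 1935 CPM in Pre-ACTH and between 2138 and 2592 CPM after treatment, where CPM are the reads of a gene per 1000000 counted reads after TMM scaling between libraries.

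As background, smooth muscle cells contract when myosin light chain kinase switches on smooth muscle myosin, which then pulls on actin, while desmin filaments hold the contractile units in place. Arteries carry layers of such cells, and capillaries carry pericytes, which need platelet-derived growth factor and Notch signals to stay on the vessel wall. Striated muscle has a different apparatus, the sarcomere, in which titin spans from the Z disc to the M band, and desmin is shared by both kinds of muscle. Desmin can thus come from more than one cell type in a biopsy, and the cells behind the titin reads were not determined.

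MYH11 (ENSCAFG00000018560) lay at 12.7 CPM in dog 1, 36.8 in dog 2, 40.7 in dog 3, 30.2 in dog 4 and 67.6 in dog 5 in Pre-ACTH. In Post-ACTH the same dogs gave 49.1, 63.6, 69.5, 77.4 and 52.1 CPM. Dogs 1 to 4 were higher after treatment and dog 5, the highest dog at the start, was lower, so the groups overlapped. The mean went from 37.6 ± 19.9 to 62.4 ± 11.8 CPM (SD, n = 5), a fitted log2 fold change of 0.89, with single dogs between -0.37 (dog 5) and 1.94 (dog 1).

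DES (ENSCAFG00000015475) was at a low level, with 12 to 50 reads per Pre-ACTH library and 34 to 93 per Post-ACTH library. Its Pre-ACTH levels were 3.50, 3.74, 1.30, 1.07 and 1.21 CPM in dogs 1 to 5, and its Post-ACTH levels 7.72, 6.72, 3.83, 6.69 and 2.54 CPM. Every dog was higher after treatment, but the Post-ACTH value of dog 5 lay within the Pre-ACTH range. The fitted log2 fold change was 1.40, and single dogs ran from 0.82 in dog 2 to 2.48 in dog 4. Counting error alone gave the lowest count, 12 Pre-ACTH reads in dogs 3 and 4, a 95% Poisson interval of 6.20 to 21.0 reads. For the 18 Pre-ACTH reads of dog 5 the interval was 10.7 to 28.4, so the ratios of dogs 3, 4 and 5 are imprecise.

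TTN (ENSCAFG00000014025) moved the other way, from 5.93, 27.8, 30.8, 22.0 and 16.9 CPM in dogs 1 to 5 in Pre-ACTH to 0.913, 6.94, 17.1, 4.60 and 1.86 CPM in Post-ACTH. Every dog was lower after treatment, with the log2 ratio between -3.08 (dog 5) and -0.84 (dog 3), and the groups overlapped because dog 1 started low and dog 3 ended high. The fitted log2 fold change was -2.07, a level 4.20-fold lower in Post-ACTH. The lowest count was 11 reads, in the Post-ACTH library of dog 1 (95% Poisson interval 5.49 to 19.7), and the highest 371.

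NOTCH3 (ENSCAFG00000016107) was also lower on average, although less so. Pre-ACTH levels were 45.5, 56.0, 40.3, 44.0 and 55.9 CPM in dogs 1 to 5, and Post-ACTH levels 46.9, 31.6, 28.3, 28.4 and 20.6 CPM. Dogs 2 to 5 were lower after treatment, with log2 ratios between -1.43 (dog 5) and -0.51 (dog 3), and dog 1 was level at 0.04, above every other Post-ACTH value, so the groups overlapped. The fitted log2 fold change was -0.67.

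**Figure D1:**
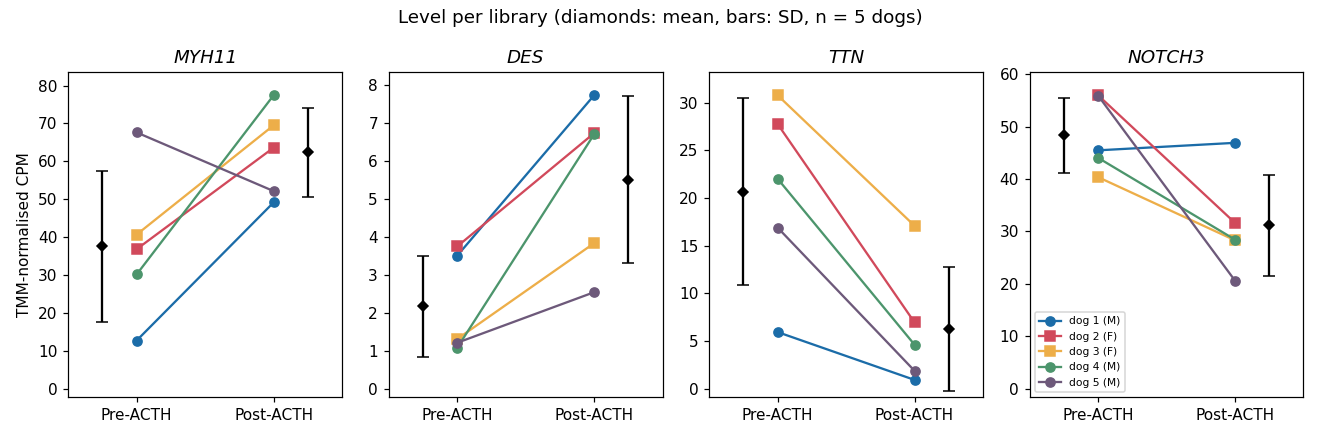
TMM-normalised CPM of MYH11, DES, TTN and NOTCH3 in every library, with each dog's Pre-ACTH and Post-ACTH values joined by a line (circles males, squares females) and the group mean ± SD (n = 5) as a diamond with bars. The lines of DES all climb and those of TTN all descend, while dog 5 descends in MYH11 (67.6 to 52.1 CPM) and dog 1 stays level in NOTCH3 (45.5 to 46.9 CPM).

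So 2 of the 4 genes were higher and 2 lower in Post-ACTH, and the sign was shared by all dogs for DES and TTN only, where 26.9% of all tested genes had 1 sign in every dog. None of the 4 had groups that did not overlap, a pattern found for 9.04% of all tested genes. By the quasi-likelihood test of edgeR with the dogs as blocks (false discovery rate, FDR, under 0.01 over all tested genes), 1 of the 4 genes was called, TTN, beside 1.97% of all tested genes, 0.751% called higher and 1.22% called lower. With DESeq2 and the same block all 4 were called, beside 8.86% of the genes tested there. Because the list behind the choice came from this contrast, these counts say nothing further about the 4 genes.

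Ratios between genes within a library do not depend on how libraries are scaled, except through the prior count of 2 reads added before taking logs. The 4 genes were chosen for their change between the groups, so the differences below partly follow from that choice and are no evidence. How many other gene pairs differ in this way was not counted. The log2 ratio of MYH11 exceeded that of NOTCH3 in all 5 dogs, by 1.06 to 1.98, also in dog 5, where both were lower after treatment. Of the pair that was lower, TTN stood below NOTCH3 in every dog, with log2 differences between -2.56 (dog 1) and -0.33 (dog 3). Of the pair that was higher, DES exceeded MYH11 in dogs 2 to 5 and MYH11 exceeded DES in dog 1, with a mean difference of MYH11 minus DES of -0.47 ± 0.89 (SD, n = 5), so these 2 did not keep a fixed order of response.

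The dogs differed widely before treatment in 3 of the 4 genes. In Pre-ACTH the SD of log2 CPM between dogs was 0.88 for MYH11, 0.82 for DES and 0.94 for TTN, against a median of 0.25 over all tested genes, and 0.21 for NOTCH3. In Post-ACTH it was 0.28 for MYH11, 0.66 for DES, 1.56 for TTN and 0.42 for NOTCH3, against a median of 0.24, and the SD of TTN was larger than that of 98.9% of tested genes. Genes with few reads have larger SDs from counting alone, which touches DES and the Post-ACTH values of TTN.

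For TTN the dogs stood in the same order in both groups, with dog 1 lowest, followed by dogs 5, 4 and 2, and dog 3 highest. The orders of MYH11, DES and NOTCH3 differed between the groups, although dog 1 was lowest for MYH11 in both. How many of all tested genes keep the same order was not counted. Differences between dogs were not used to choose the genes and were tested in the same paired fit, a test added after the files were seen. TTN had an adjusted p of 0.136 (quasi-likelihood F test in edgeR, adjusted over all tested genes), DES 0.303, MYH11 0.532 and NOTCH3 0.725, so none was called, beside 0.0368% of all tested genes. DESeq2's likelihood ratio test called TTN (adjusted p = 1.29e-07) and none of the other 3, and it called 432 genes where edgeR called 5.

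The response of males and females was compared with a sex term added to the same fit, also after the files were seen. The log2 ratios of TTN were -2.51, -2.22 and -3.08 in the 3 males and -1.98 and -0.84 in the 2 females, so the sexes did not overlap. How many of all tested genes separate the few dogs in this way was not counted. The fitted difference, males minus females, was -1.27 (SE 0.44), and it was not called (adjusted p = 1 in edgeR). Its unadjusted p was 0.0249 (quasi-likelihood F test in edgeR), so TTN is among the 435 genes counted below. For MYH11, DES and NOTCH3 the fitted differences were 0.18 (SE 0.63), 0.42 (SE 0.60) and 0.00024 (SE 0.54), and none was called. Over all tested genes 0% were called for this term, 435 had an unadjusted p under 0.05, and DESeq2 called 5 genes, none of the 4.

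Further genes of the same systems were taken from lists of smooth muscle, mural, striated muscle, titin partner, dystrophin complex and Notch genes. Symbols come from the study's list of changed genes alone, so 13 of the 139 listed genes could be matched, the 4 genes above and 9 others, and the other 126 were not analysed here, among them the smooth muscle genes ACTA2, TAGLN and CNN1 and the pericyte genes RGS5 and CSPG4. Every matched gene had been picked by the study for its change in these samples. Their directions, calls and median fold change are therefore no independent evidence, also where shares over all genes stand beside them. Of the 13, 6 were higher and 7 lower in Post-ACTH, and 2 were called in each direction (edgeR, FDR under 0.01). Over all tested genes 0.751% were called higher and 1.22% lower. The median log2 fold change of the 13 was -0.44, against -0.0021 over all tested genes. Adjusted p-values of the 9 others, given below, come from the contrast that selected these genes and are descriptions only.

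The 5 matched smooth muscle genes of 24 were all higher (median 0.75 on the log2 scale). Of these 1 was called higher, beside 0.751% of all tested genes, a count from which nothing is read. DES among them is shared with striated muscle, and how particular the others are to smooth muscle was not tested. MYLK, the kinase that starts smooth muscle contraction, ran from 129 to 216 CPM in Pre-ACTH and between 213 and 331 CPM after treatment. It rose by 0.75 on the log2 scale (paired edgeR test, adjusted p = 0.00933, SE 0.11) and was higher in 5 of 5 dogs, and its SD of log2 CPM between dogs was smaller than that of MYH11 in both groups. This call was lost when any 1 dog was left out, with adjusted p of 0.0102, 0.0267, 0.0385, 0.0196 and 0.0353 in edgeR without dogs 1 to 5, and without the dog block (0.0163). Tropomyosin TPM1 had a log2 fold change of 0.67 (adjusted p = 0.0336 in that edgeR test) and PPP1R12B, which directs the phosphatase that reverses the action of MYLK, one of 0.57 (adjusted p = 0.0110), both with the same sign in every dog and neither past the threshold. Only PPP1R12B of these 5 had groups that did not overlap, at 63.5 to 82.0 CPM and 93.1 to 131 CPM, a pattern found for 9.04% of all tested genes. In dog 5, where MYH11 was lower after treatment, MYLK, TPM1, PPP1R12B and DES were higher.

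The 3 matched mural genes of 13 were all lower, with a median of -0.68. PDGFRB, the receptor by which pericytes receive platelet-derived growth factor, lay between 156 and 215 CPM in Pre-ACTH and between 96.9 and 120 CPM in Post-ACTH, without overlap. It fell by 0.74 on the log2 scale (paired edgeR test, adjusted p = 0.00241, SE 0.07), and the adjusted p in edgeR was 0.0166 without dog 2, 0.0124 without dog 3 and 0.0170 without dog 5. Its ratio hardly varied, from -0.85 to -0.68 over the 5 dogs, while that of NOTCH3 ran from -1.43 to 0.04. EBF2, a transcription factor, had a log2 fold change of -0.68 (adjusted p = 0.0164 in that edgeR test). PDGFRB and EBF2 are also found in fibroblasts and adipose progenitors.

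Of 31 Notch pathway genes, only NOTCH3 and HEY1, a transcription factor that Notch signalling switches on, were matched. HEY1 ran from 18.5 to 33.9 CPM in Pre-ACTH and between 8.06 and 22.6 CPM after treatment, was lower in all 5 dogs and missed the threshold (log2 fold change -0.99, paired edgeR test, adjusted p = 0.0358). In dog 1, where NOTCH3 was level, HEY1 had a log2 ratio of -0.67.

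Among 48 striated muscle genes TTN and CKM, the muscle creatine kinase, were matched, and they moved in opposite directions in every dog. CKM was 2.77 to 16.4 CPM in Pre-ACTH and 43.3 to 142 CPM in Post-ACTH. It rose 11.9-fold, or 3.58 on the log2 scale (paired edgeR test, adjusted p = 0.00199, SE 0.26), and single dogs lay between 2.61 and 4.49, while TTN lay between -3.08 and -0.84. Without dog 3 the adjusted p of CKM in edgeR was 0.0112. The other 46 genes, with the skeletal myosins, actins and troponins that define the tissue, were not analysed here. The 2 matched genes of this list showed no change in common. Of the other lists, SGCA of striated muscle was lower (log2 fold change -2.31), and DES, shared by both kinds of muscle, was higher (1.40). All these genes had been picked for their change in this contrast, and the amount of striated muscle in the biopsies was not tested.

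The dystrophin complex, which ties the cytoskeleton of muscle to the matrix around it, had 2 matched genes of 13, both sarcoglycans and neither past the threshold. SGCA, of striated muscle, held 0 to 102 reads in Pre-ACTH and 0 to 12 in Post-ACTH, with a log2 fold change of -2.31 (paired edgeR test, adjusted p = 0.0598), and dog 4 went from 0 reads to 1. SGCB, at 137 to 177 CPM in Pre-ACTH and 105 to 140 CPM in Post-ACTH, had a log2 fold change of -0.44 (adjusted p = 0.0423 in that edgeR test) and was lower in 4 of 5 dogs.

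**Figure D2:**
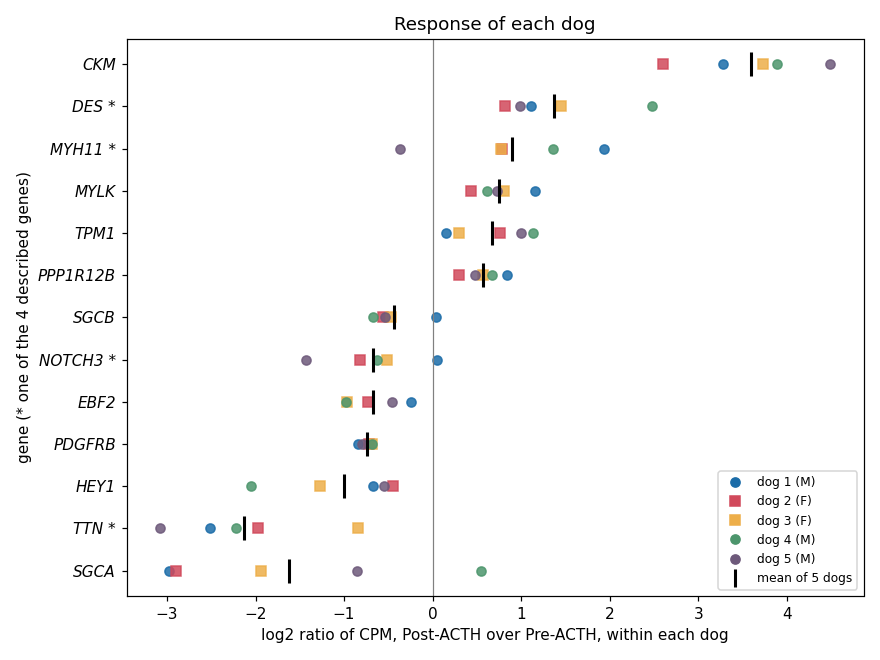
Log2 ratio of CPM, Post-ACTH over Pre-ACTH, within each of the 5 dogs (points, circles males and squares females) and its mean (bar) for the 13 matched muscle, mural and Notch genes, ordered by fitted log2 fold change. CKM lies to the right of all others (2.61 to 4.49) and TTN to the left of 0 in every dog, and PDGFRB is the tightest (-0.85 to -0.68).

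For other cell types too, a marker could be matched only if it stood on the study's list of genes changed in this contrast, so the directions below were set by that choice and are given as values without a test. The summed level of the 5 matched fibroblast genes of 7 (DCN, LUM, COL1A1, COL1A2 and COL3A1) was 1364 to 3139 CPM in Pre-ACTH and 450 to 759 CPM in Post-ACTH, lower in 5 of 5 dogs, and 3 of the 5 genes were called lower, beside 1.22% of all tested genes, a count from which nothing is read. The 2 matched leukocyte genes of 6 (PTPRC and CSF1R) summed to 76.4 to 170 CPM and 37.3 to 83.8 CPM, lower in 4 of 5 dogs. None of the 8 endothelial and 8 mesothelial markers was matched. In bulk tissue fewer cells of a type and less RNA per cell cannot be told apart, and the part of cell composition in the levels of MYH11, DES, TTN and NOTCH3 was not tested.

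In the RefSeq annotation of another assembly (UU_Cfam_GSD_1.0), all 4 genes overlap other genes: MYH11 overlaps NDE1, DES 1 long noncoding RNA, TTN 1 long noncoding RNA and 1 predicted gene, and NOTCH3 2 long noncoding RNAs. The strand setting of the counting is not given in the sources used here, so reads of such partners may have entered or left these counts.

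The sign of all 4 genes held under every setting tried, which is no evidence, since the genes were chosen for their change in these same libraries. Leaving out 1 dog at a time moved the fitted log2 fold change of MYH11 between 0.63 and 1.20, of DES between 1.12 and 1.57, of TTN between -2.46 and -1.83 and of NOTCH3 between -0.85 and -0.48. None of the 4 genes, TTN included, was called in edgeR when any 1 dog was left out. Calls over all tested genes changed too, from 268 with all dogs to 1, 12, 117 and 23 without dogs 2, 3, 4 and 5. Without dog 1 they numbered 318. The lost call of TTN is thus not particular to TTN in 4 of these 5 fits.

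**Figure D3:**
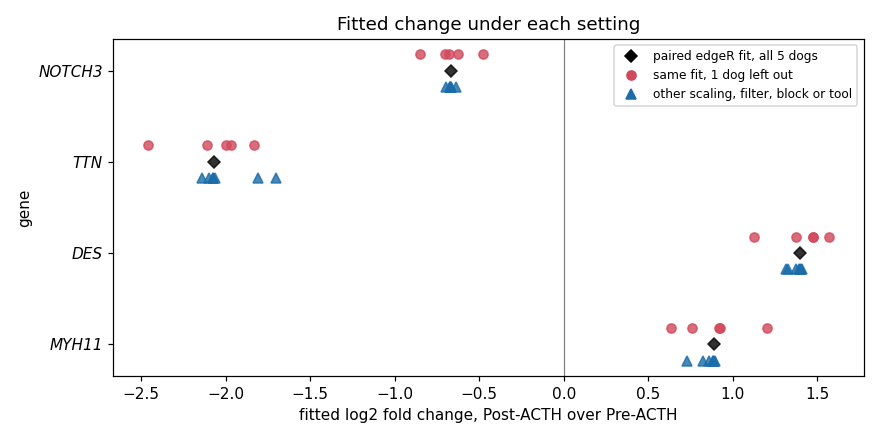
Fitted log2 fold change of MYH11, DES, TTN and NOTCH3 from the paired edgeR fit of all dogs (diamonds), with 1 dog left out (circles) and with another scaling, filter, block or tool (triangles). All points of MYH11 and DES lie right of 0 and all points of TTN and NOTCH3 left of it, with the widest spread for TTN (-2.46 to -1.70).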

How the data were processed

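The authors trimmed the reads, aligned them to CanFam3.1 with STAR and used featureCounts to count them for each Ensembl gene, and they deposited raw counts, 1 table per library. Versions, strand setting and the handling of reads shared by genes are not given in the sources used here, and the labels and the study's methods differ on read length and on how mRNA was enriched. The counts were analysed in edgeR 4.0.16 under R 4.3.3 (glmQLFit, then glmQLFTest, after TMM scaling), with the dog as a block as in the study's methods, over the 13577 genes that reached 10 reads in any library, and genes under an FDR of 0.01 (Benjamini-Hochberg) were called. Log2 ratios of single dogs came from log2 CPM after adding a prior count of 2. Depth limits precision most for DES, TTN and SGCA, and intervals of counts cover counting error only.

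Libraries of the same dog were paired by animal ID, and their deviations from the group means correlated at 0.0772 to 0.412. Symbols were taken from the study's supplementary list, which names 1079 of 1190 genes, all found in the count tables. Its fold changes and p-values were not used. The members and gene lists were chosen with earlier results of these data known. A further gene was taken out of the lists afterwards, is in none of their counts and is not reported here. Genes named in the text are the 4 members, the matched genes of the muscle, mural and Notch lists, summed markers of other cell types and, for each member, the 3 genes most like it. The rule named called genes and fixed anchors. SGCA, SGCB, PPP1R12B, EBF2 and HEY1 fall outside it and were named after their values were seen. Alternatives were RLE and total-count scaling, other low-count filters, no dog block, DESeq2 1.42.0, limma-voom (limma 3.58.1) and leaving out each dog. Tests of dog and sex were added after the files were seen.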

Additional observations from a re-analysis of the deposited data

Results flagged for a closer look

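In 39 sets of 5 values (CPM in each group and log2 ratios, for 13 genes), 2 had 1 dog far from the others. Chance alone sets apart about 1 set in 20 where values are independent and normally distributed. The CPM were not logged, and the sets of a gene share libraries, so that rate need not hold here. The Pre-ACTH level of SGCA was 7.63 CPM in dog 2 and at most 1.74 CPM in the other dogs. The Pre-ACTH level of SGCB was 137 CPM in dog 1, the lowest of the group. No set of MYH11, DES, TTN or NOTCH3 had such a value.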

How the results depend on the processing

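The fitted log2 fold changes of all 13 genes kept their sign in each of the 156 values from 12 alternatives. These genes were picked for their change in this contrast, and the alternatives refit the same libraries, so the kept sign is no evidence. How many of all tested genes keep their sign was not counted. For MYH11, DES, TTN and NOTCH3 every value stayed within 1 SD of the dogs' ratios, and over the 7 alternatives with all dogs they ran from 0.73 to 0.90, 1.31 to 1.41, -2.14 to -1.70 and -0.70 to -0.64. Of the 13 genes 4 were called. The number was 2 without the replicate block that pairs the libraries of a dog (TTN and MYLK were lost). It was 12 with DESeq2, beside 8.86% of the genes tested there, and 0 to 3 with 1 dog left out. The study made its list with DESeq2, the same pairing and the same threshold, so the 12 repeat the choice of these genes. Without dog 3 the number was 0, with 12 genes called of all tested. Without dog 2 it was 1 (CKM), the only gene called of all tested. Without dog 4 it was 2, with 117 called of all tested, and without dog 5 it was 1, with 23. limma-voom also called 4, with PPP1R12B in place of TTN. RLE, total-count scaling and both other filters gave 4 or 5. With total counts the summed fibroblast, leukocyte and LIPE levels moved by less than the SD between dogs. DESeq2's test of dogs called 1 of the 4 members where edgeR called 0. DES, with as few as 12 reads, TTN, with 11, and SGCA, with 0, are limited by depth.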

Other observations

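The genes whose levels followed each of the 4 most closely, once the group means were removed, were sought among 975 other genes with a symbol and a mean of at least 50 reads. Genes with a symbol are those on the study's list of changed genes, so each candidate had been picked for its fold change in this contrast. The 10 libraries come from 5 dogs, and these correlations describe them without a test. MYH11 was followed most closely by SREBF1 (r = 0.92), a transcription factor of lipid synthesis, TAF4B (0.81) and POLR3D (0.75). Nearest to TTN were LPGAT1 (0.92), EPCAM (0.88) and GEM (0.88), and nearest to NOTCH3 were TNFRSF18 (0.83), TRANK1 (0.81) and HYKK (0.80). DES was followed by NOV (0.91), MXRA5 (0.91) and OLFML1 (0.90), whose products are secreted. Those 3 had log2 fold changes of -1.48, -2.15 and -1.40 where DES had 1.40, so dogs with more DES than their group had more of these transcripts, while the difference between the groups, which had put these genes among the candidates, had the opposite sign. The 3 genes nearest to TTN likewise had log2 fold changes above 0 (0.69, 0.60 and 1.23). Among all 10668 other genes with as many reads, 11 lay closer to TTN than GEM did and 70 closer to MYH11 than POLR3D did.

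The 4 genes did not follow one another closely either. With group means removed, r was 0.55 for MYH11 and TTN, 0.58 for DES and NOTCH3, and -0.40 for MYH11 and DES over the same 10 libraries.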
